A study of Mus musculus with 28 samples.

Results

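The 32 genes described here belong to glycolysis and to the transcriptional response to low oxygen, out of 25719 gene identifiers counted in every library. They were chosen by name as members of these pathways, at a time when earlier results of these data were known. In all, 17 act in glucose uptake, glycolysis, its control by fructose 2,6-bisphosphate, or lactate formation and export, and 15 are hypoxia-response genes for pyruvate diversion, oxygen sensing, mitophagy, pH balance, vessel signals and growth or chromatin control. All 32 passed the filter on low counts in every comparison.

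Glycolysis splits glucose into pyruvate in the cytosol and yields ATP without oxygen. When oxygen is scarce, the prolyl hydroxylases encoded by the Egln genes slow down, and the hypoxia-inducible factor subunits encoded by Hif1a and Epas1 escape degradation, pair with Arnt and bind short hypoxia response elements near genes for glucose uptake, glycolysis, lactate export, mitophagy and angiogenesis. Tendon is a sparsely vascularised, collagen-rich tissue of low cell density, whereas skeletal muscle, which borders tendon, is among the tissues richest in glycolytic enzymes.

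Tail tendon fascicles of Fosl-2(Tg) mice and of nontransgenic controls (WT), all on a C57BL/6 background, were homogenised whole and profiled by bulk RNA-seq with 1 library per mouse. In Fosl-2(Tg) mice the murine Fosl2 gene, followed by a self-cleaving peptide and eGFP, is driven by the MHC class I promoter H2Kb from a random insertion site, and the controls came from the same breeding without the transgene. The early cohort held 7 WT and 8 Tg mice, all male, aged 6 to 8 weeks, and the established cohort held 6 WT and 7 Tg mice older than 14 weeks, of which 1 in each genotype was male. The promoter is not restricted to tendon cells, the study's notes mention low RNA yield from transgenic tendons and the loss of severely affected mice to euthanasia, and cohort, age and sex largely coincide, so that effects of stage and of sex cannot be told apart. Levels are given in CPM, which are read counts scaled to library size by TMM, and fold changes are on the log2 scale from edgeR with a standard error (SE).

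Libraries held 9645598 to 66894396 counted reads. Fosl2 itself ranged from 58.8 to 136 CPM in WT early mice and from 63.4 to 156 CPM in Tg early mice, and from 78.1 to 169 CPM in WT established mice and from 121 to 160 CPM in Tg established mice, so the genotypes overlapped in both cohorts (two-sided exact permutation test of mean log2 CPM, p = 0.56 early and p = 0.033 established). The tenocyte markers Scx and Tnmd were detected in every library, but in established mice the summed level of 9 tenocyte genes was 6442 to 62028 CPM in Tg against 72773 to 138550 CPM in WT (exact permutation p = 0.0017, adjusted over 10 marker lists 0.017). Of these 9 genes, 3 were lower and 0 higher in Tg at an edgeR adjusted p of at most 0.05. Scx, Tnmd and Mkx had medians of 83.9, 754 and 255 CPM in WT established mice, so other genes of the list made up most of the sum. The mean log2 level of the 9 genes, which weighs them equally, differed by -1.63 (Tg minus WT, adjusted exact permutation p = 0.035). Scx and Tnmd did not overlap between the established genotypes, whereas Mkx did (189 to 293 CPM in WT, 109 to 295 CPM in Tg). The summed level of 22 skeletal muscle genes differed widely between mice within every group, from 493 to 32195 CPM in WT early, 2961 to 33612 CPM in Tg early, 276 to 64264 CPM in WT established and 186 to 18495 CPM in Tg established mice (exact permutation p = 0.15 early and 0.47 established between genotypes). Macrophage genes summed to 740 to 1268 CPM in WT and 942 to 1650 CPM in Tg established mice (adjusted exact permutation p = 0.10), and to 961 to 1534 CPM in WT and 857 to 1258 CPM in Tg early mice (adjusted exact permutation p = 0.041). The epidermal markers Krt5 and Krt14 stayed below 0.30 CPM and the neutrophil markers S100a8 and S100a9 below 1.63 CPM in every library, with S100a9 at 0 in all groups except Tg established. In established mice 11 keratinocyte genes summed to 49.1 to 85.8 CPM in WT and 29.0 to 65.8 CPM in Tg (adjusted exact permutation p = 0.44). There 8 neutrophil genes summed to 0.525 to 1.17 CPM in WT and 0.929 to 6.63 CPM in Tg (adjusted exact permutation p = 0.058). Neither list passed in early mice (0.24 and 0.52 by the same test). In these bulk samples, fewer cells of a type and less RNA per cell cannot be told apart.

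The upstream sequences of the 6 members called higher in established Tg tendon are shown, and most of these genes are textbook targets of hypoxia-inducible factors. Whether they vary together across mice was not tested. Each run holds the 250 bases before the annotated start of the canonical transcript in GRCm39, read 5′ to 3′ on the gene's strand, and capitals mark the core of the hypoxia response element, ACGTG or GCGTG, searched on both strands (read as CACGT or CACGC on the opposite strand). The palindrome CACGTG counts on both strands, so that matches can overlap. The windows lie at chr7:110226608-110226857 (Adm, plus strand), chr15:66841803-66842052 (Ndrg1, minus strand), chr7:138511254-138511503 (Bnip3, minus strand), chr13:6698971-6699220 (Pfkp, minus strand), chr10:77845923-77846172 (Pfkl, minus strand) and chr6:71609975-71610224 (Kdm3a, minus strand).
Adm: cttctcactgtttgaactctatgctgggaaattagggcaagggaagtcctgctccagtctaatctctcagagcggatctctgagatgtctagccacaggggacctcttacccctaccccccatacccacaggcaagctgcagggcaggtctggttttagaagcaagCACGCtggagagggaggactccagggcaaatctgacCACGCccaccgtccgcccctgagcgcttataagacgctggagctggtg
Ndrg1: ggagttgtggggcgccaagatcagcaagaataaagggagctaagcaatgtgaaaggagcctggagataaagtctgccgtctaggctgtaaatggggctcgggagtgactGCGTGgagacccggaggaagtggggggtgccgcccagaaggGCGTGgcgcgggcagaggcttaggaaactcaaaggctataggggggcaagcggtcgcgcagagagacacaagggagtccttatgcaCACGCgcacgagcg
Bnip3: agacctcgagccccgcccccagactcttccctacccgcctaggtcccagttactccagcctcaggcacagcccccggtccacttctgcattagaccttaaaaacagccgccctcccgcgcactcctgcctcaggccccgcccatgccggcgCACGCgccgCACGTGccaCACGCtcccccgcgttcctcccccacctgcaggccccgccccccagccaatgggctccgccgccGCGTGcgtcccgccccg
Pfkp: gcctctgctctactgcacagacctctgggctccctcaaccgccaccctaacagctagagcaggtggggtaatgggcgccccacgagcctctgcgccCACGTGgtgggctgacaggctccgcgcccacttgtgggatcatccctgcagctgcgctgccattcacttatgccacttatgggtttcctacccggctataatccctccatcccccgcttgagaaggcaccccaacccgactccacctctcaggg
Pfkl: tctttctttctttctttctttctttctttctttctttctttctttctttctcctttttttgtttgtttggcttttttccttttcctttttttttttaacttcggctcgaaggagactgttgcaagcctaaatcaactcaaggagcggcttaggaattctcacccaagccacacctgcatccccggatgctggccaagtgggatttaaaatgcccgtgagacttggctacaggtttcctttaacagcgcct
Kdm3a: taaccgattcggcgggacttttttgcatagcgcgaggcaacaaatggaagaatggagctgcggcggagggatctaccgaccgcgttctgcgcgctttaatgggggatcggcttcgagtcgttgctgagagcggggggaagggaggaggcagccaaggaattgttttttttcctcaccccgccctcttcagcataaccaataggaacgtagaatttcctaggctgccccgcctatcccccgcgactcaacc

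Bnip3 held 5 core matches, Ndrg1 3, and Adm and Pfkp 2 each, whereas no match lay in these windows of Pfkl and Kdm3a. Across the whole set, 20 of the 32 windows (62.5%) held at least 1 match, against 41.4% of 21571 windows of the same length before protein-coding genes. The members were chosen by name as glycolysis and hypoxia-response genes, so this contrast describes the choice and is not a result of these data. Ldha, which did not pass the test in either cohort, held 6 matches, the highest number in the set. The AP-1 motif TGANTCA, to which Fos family proteins bind with Jun partners, lay in the windows of Aldoa and Car9, 2 of 32 (6.25%), against 6.18% of all windows. A match is a description of letters and not evidence of binding.

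The levels of the 32 transcripts spanned a wide range. Per kilobase of the canonical transcript, the mean over all 28 mice was highest for Aldoa (416 CPM per kb), which splits fructose 1,6-bisphosphate, followed by Gapdh (370 CPM per kb), which oxidises glyceraldehyde 3-phosphate, and Pkm (214 CPM per kb), which makes pyruvate. Ldha, which reduces pyruvate to lactate, followed at 125 CPM per kb and Eno1, which makes phosphoenolpyruvate, at 92.1 CPM per kb. The hypoxia-response gene of highest level per length was Ndrg1 with 50.4 CPM per kb. The carbonic anhydrase Car12 was lowest with 0.458 CPM per kb, below the glycolytic regulator Pfkfb4 with 2.83 and the peptide hormone gene Adm with 3.07 CPM per kb. Between-mouse spread was large: over the 28 mice Aldoa ranged from 168 to 2017 CPM, Gapdh from 235 to 1229 CPM and Pkm from 264 to 890 CPM.

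The comparison of genotypes in the early cohort asks whether these pathways differ in young mice. No member was called, called meaning an adjusted p of at most 0.05 in edgeR's quasi-likelihood test over all 15138 genes tested. The background in this comparison was 0.00661% of genes called higher and 0.0330% called lower. At an unadjusted p under 0.05, 1 member passed in edgeR, Pdk1, the kinase that keeps pyruvate out of the mitochondrial citric acid cycle. Its level was 44.6, 63.9 and 66.7 CPM (lowest, median and highest) in WT and 47.7, 71.6 and 87.0 CPM in Tg mice, a log2 fold change of 0.31 ± 0.13 (SE, n = 7 and 8, adjusted p = 0.77 in edgeR). With the replicate number as a block, 0 members were called and 5 had an unadjusted p under 0.05, Pgam1, Car12, Pkm and Pdk1 with positive and Pfkfb4 with negative fold changes. DESeq2 and limma voom also called 0 members, with 1 and 8 at an unadjusted p under 0.05. Positive fold changes were more common than negative ones: 25 of 32 members lay above 0 with a median of 0.11, against 47.3% of all genes and a median of -0.01. With the muscle level of each mouse as a covariate, 17 of 32 were positive and the median was 0.02, and muscle genes had a median of 4660 CPM in WT and 16646 CPM in Tg early mice. No member separated the genotypes without overlap, against a background of 0.00661% higher and 0.0462% lower.

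In the established cohort, 6 of the 32 members were called higher in Tg and 0 lower (18.8% and 0%), against a background of 3.14% of 15862 genes called higher and 3.37% called lower. They were the 6-phosphofructo-1-kinase genes Pfkl and Pfkp, the mitophagy receptor Bnip3, the vasodilator peptide gene Adm, the stress-response gene Ndrg1 and the histone H3 lysine demethylase Kdm3a. A further 4 members were higher at an unadjusted p under 0.05 without passing the adjustment, the glucose transporter Slc2a1, the bifunctional enzyme gene Pfkfb3, Bnip3l and Ankrd37, and 0 members were lower at that level. The median log2 fold change over the 32 was 0.20 against 0.01 over all genes, and 20 of 32 were positive against 50.7% of all genes. The median of the members was 0.004 without Tg established replicate 7 and 0.02 with the replicate number as a block. The block also takes that mouse, which has no WT mouse of its number, out of the genotype difference. These values are therefore not separate checks. The 15 hypoxia-response members had a median of 0.43 with 4 called, and the 17 glycolysis members a median of -0.08 with 2 called. With the muscle level of each mouse as a covariate these medians were 0.60 with 5 called and 0.21 with 4 called. These were counts and medians over chosen genes, and the difference between the subsets was not tested. Without overlap between the genotypes, 2 members were higher, Pfkl and Adm, and 0 lower, against a background of 1.48% higher and 2.33% lower.

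**Figure D1:**
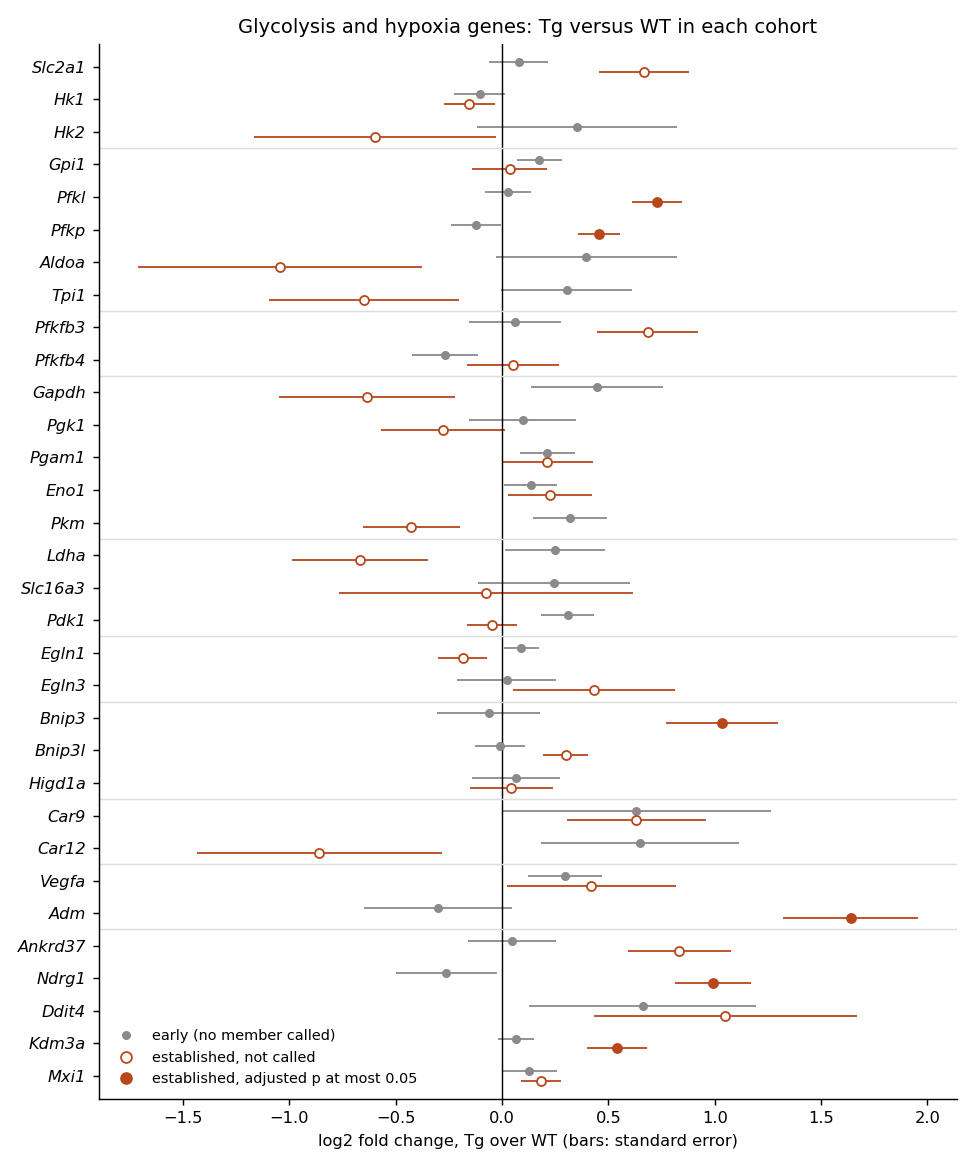
Log2 fold change of Tg over WT for the 32 genes, grouped by role from glucose entry (top) to growth and chromatin control (bottom), in the early (grey) and the established cohort (red). Bars are standard errors and filled red points mark an adjusted p of at most 0.05: Pfkl, Pfkp, Bnip3, Adm, Ndrg1 and Kdm3a, all to the right of 0, while no early point was called.

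Glucose entry was represented by Slc2a1, the basal glucose transporter, and by Hk1 and Hk2, the hexokinases that trap glucose inside the cell. Slc2a1 was at 9.44, 13.7 and 15.1 CPM in WT and at 12.996, 18.1 and 33.3 CPM in Tg established mice, overlapping groups with a log2 fold change of 0.67 ± 0.21 (SE, n = 6 and 7, edgeR adjusted p = 0.071). Hk1 had 49.9 to 60.5 CPM in WT and 36.5 to 65.9 CPM in Tg mice. Hk2, the isoform typical of muscle and insulin-sensitive tissue, ranged from 7.74 to 93.7 CPM in WT and from 9.42 to 46.4 CPM in Tg, so that neither hexokinase was called (edgeR adjusted p = 0.43 and 0.52).

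The committed step of glycolysis, phosphorylation of fructose 6-phosphate, is made by phosphofructokinase, whose liver-type and platelet-type subunits are encoded by Pfkl and Pfkp. Pfkl had 18.7, 19.3 and 21.4 CPM in WT and 22.7, 33.2 and 39.7 CPM in Tg established mice. All 7 Tg mice thus lay above all 6 WT mice, with a log2 fold change of 0.73 ± 0.12 (1.66-fold, edgeR adjusted p = 0.0093). Pfkp had 59.6, 65.3 and 75.2 CPM in WT and 75.2, 85.6 and 113 CPM in Tg mice, which met at the highest WT and the lowest Tg mouse. Its log2 fold change was 0.46 ± 0.10 (1.37-fold, edgeR adjusted p = 0.022), but with 1 WT mouse left out, replicate 1 or replicate 5, adjusted p was 0.055 or 0.050. In the early cohort the same genes gave 0.03 ± 0.11 and -0.12 ± 0.12, with Pfkl at 22.9 to 32.1 CPM in WT and 18.9 to 33.5 CPM in Tg mice.

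The third phosphofructokinase gene, Pfkm, is the muscle-type subunit and was not a member of the set. It ranged from 21.8 to 477 CPM in WT and from 23.3 to 130 CPM in Tg established mice, with a log2 fold change of -1.48 ± 0.75 that did not pass the test (edgeR adjusted p = 0.22). With the muscle level as a covariate it gave -0.33 ± 0.32. The same held for the other muscle-type isoforms examined, Pgam2 (-1.92 ± 0.80, and -0.42 ± 0.34 with the covariate) and Eno3 (-1.85 ± 0.93, and -0.59 ± 0.35 with the covariate). Their ubiquitous counterparts in the set, Pgam1 and Eno1, gave 0.21 ± 0.21 and 0.23 ± 0.20.

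The remaining glycolytic enzymes were not called in the established cohort, and their mice scattered widely. Aldoa had 168, 327 and 2017 CPM in WT and 172, 213 and 960 CPM in Tg established mice (-1.04 ± 0.67, edgeR adjusted p = 0.33). Gapdh had 249, 341 and 1135 CPM in WT and 235, 290 and 640 CPM in Tg mice (-0.63 ± 0.41, edgeR adjusted p = 0.34), with 2 WT mice at 1094 and 1135 CPM and the other 4 at 249 to 355 CPM. Tpi1, which interconverts the triose phosphates, gave -0.65 ± 0.45, Pgk1, which makes the first ATP, -0.28 ± 0.29, and Gpi1, which isomerises glucose 6-phosphate, 0.04 ± 0.18. Pkm had 350, 407 and 715 CPM in WT and 264, 330 and 600 CPM in Tg mice (-0.43 ± 0.23, edgeR adjusted p = 0.25). Reads of the near-identical retrocopies that were measured were few, at most 0.875 CPM for Eno1b and 0.405 CPM for Gapdhrt. Reads that match a gene and its copy equally well were not examined here.

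**Figure D2:**
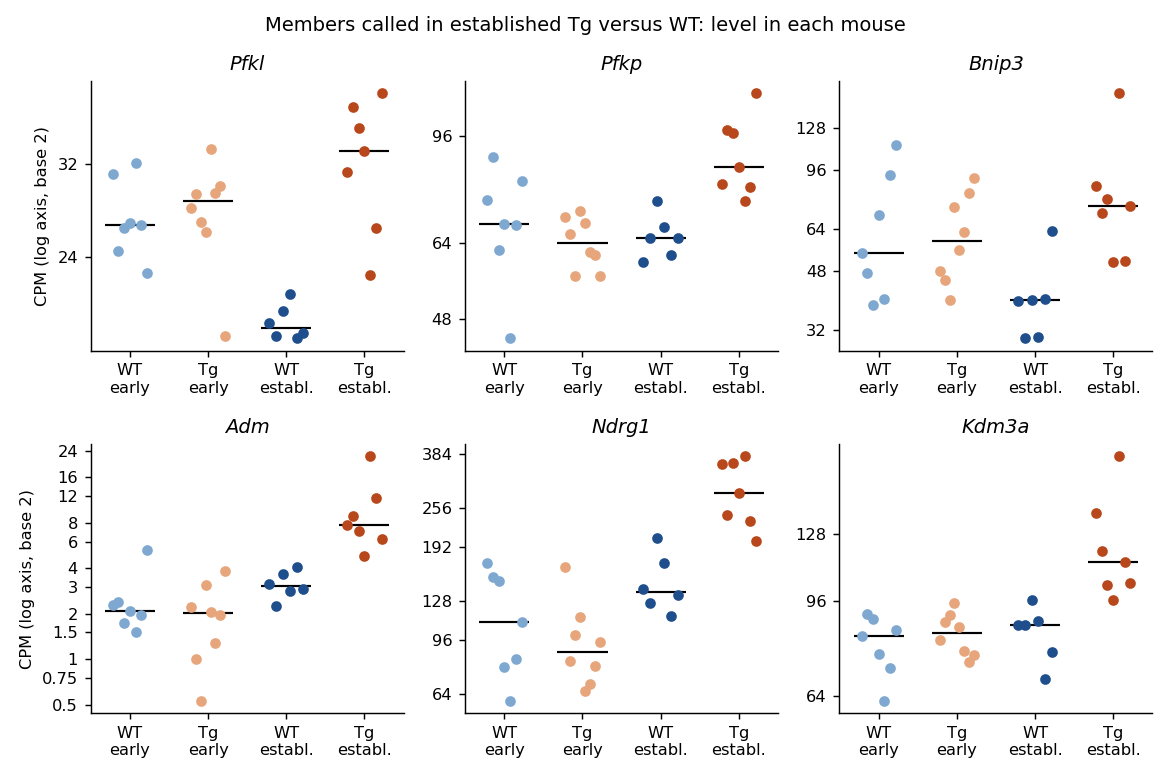
CPM of the 6 genes called in established Tg versus WT, for each of the 28 mice (points) with the group median (line), on a logarithmic axis. The 7 Tg established mice lie above all WT established mice for Pfkl and Adm, while the early groups overlap for all 6 genes.

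Pfkfb3 and Pfkfb4 encode bifunctional enzymes that set fructose 2,6-bisphosphate, the activator of phosphofructokinase. Pfkfb3 was at 21.8 to 41.0 CPM in WT and 27.3 to 83.9 CPM in Tg established mice (0.68 ± 0.24, edgeR adjusted p = 0.093), and Pfkfb4 at 7.14 to 18.2 and 8.91 to 16.7 CPM (0.05 ± 0.22). At the end of the pathway, Ldha had 109, 139 and 324 CPM in WT and 65.3, 105 and 220 CPM in Tg mice (-0.67 ± 0.32, edgeR adjusted p = 0.20). The lactate exporter Slc16a3 ranged from 4.52 to 58.7 CPM in WT and from 5.91 to 52.8 CPM in Tg mice, and was not called (-0.08 ± 0.69). Pdk1 gave -0.05 ± 0.12.

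Among the oxygen sensors, neither prolyl hydroxylase gene was called. Egln1, the main regulator of hypoxia-inducible factor at normal oxygen, had 65.3 to 91.0 CPM in WT and 52.7 to 78.6 CPM in Tg established mice (-0.18 ± 0.11). Egln3, itself induced by hypoxia, had 6.77 to 16.6 and 3.45 to 28.4 CPM (0.43 ± 0.38, edgeR adjusted p = 0.48).

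Bnip3 and Bnip3l encode receptors on the outer mitochondrial membrane that recruit the autophagy machinery. Bnip3 had 30.2, 39.3 and 63.2 CPM in WT and 51.1, 74.7 and 162 CPM in Tg established mice, a log2 fold change of 1.03 ± 0.26 (2.05-fold, edgeR adjusted p = 0.037). Only the highest WT mouse, at 63.2 CPM, overlapped with Tg mice, and the call stayed in 5 of 13 fits with 1 mouse left out, with adjusted p up to 0.080 without WT replicate 2. Bnip3l had 68.9 to 86.4 CPM in WT and 79.3 to 129 CPM in Tg mice (0.30 ± 0.11, edgeR adjusted p = 0.097). Bnip3l also acts in red cell maturation, and erythroid genes summed to 9.39 to 20.9 CPM in WT and 10.6 to 128 CPM in Tg established mice (adjusted exact permutation p = 0.10). In early mice they summed to 9.09 to 33.4 CPM in WT and 8.01 to 11.6 CPM in Tg (adjusted exact permutation p = 0.041). Their part in the level of Bnip3l was not tested. Higd1a, a small protein of the inner mitochondrial membrane induced by hypoxia, gave 0.04 ± 0.20.

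The membrane carbonic anhydrases Car9 and Car12, which buffer acid outside the cell, were low. Car9 was at 1.27 to 2.25 CPM in WT and 0.794 to 5.59 CPM in Tg established mice (0.63 ± 0.33), and Car12 at 0.670 to 5.54 and 0.289 to 4.15 CPM (-0.86 ± 0.58), neither of which passed the test (edgeR adjusted p = 0.23 and 0.35).

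The vessel signals behaved unequally. Adm encodes adrenomedullin, a vasodilator and lymphangiogenic peptide, and had the largest fold change of the set in the established cohort. It was at 2.24, 3.03 and 4.05 CPM in WT and 4.78, 7.77 and 22.1 CPM in Tg mice, so that every Tg mouse exceeded every WT mouse. The log2 fold change was 1.64 ± 0.32 (3.12-fold, edgeR adjusted p = 0.016), and adjusted p stayed at or below 0.039 whichever single mouse was left out. Vegfa, the main angiogenic growth factor, had 11.8, 16.3 and 42.9 CPM in WT and 16.4, 18.8 and 70.0 CPM in Tg mice, with no call (0.42 ± 0.40, edgeR adjusted p = 0.52).

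Of the growth and chromatin genes, Ndrg1 and Kdm3a were called. Ndrg1 had 115, 137 and 205 CPM in WT and 200, 288 and 379 CPM in Tg established mice, and a single pair overlapped, the highest WT mouse at 205 CPM and the lowest Tg mouse at 200 CPM. Its log2 fold change was 0.99 ± 0.18 (1.99-fold, edgeR adjusted p = 0.013). Kdm3a had 68.8, 86.7 and 96.5 CPM in WT and 96.3, 113 and 178 CPM in Tg mice (0.54 ± 0.14, 1.46-fold, edgeR adjusted p = 0.038), and its call stayed in 6 of 13 fits with 1 mouse left out, with adjusted p up to 0.078 without WT replicate 5. Ankrd37, a small ankyrin-repeat gene induced by hypoxia, had 1.14 to 2.47 CPM in WT and 2.22 to 5.29 CPM in Tg mice (0.83 ± 0.24, edgeR adjusted p = 0.055). Ddit4, an inhibitor of mTORC1, varied more within groups than between them, from 6.01 to 123 CPM in WT and 26.7 to 153 CPM in Tg mice (1.05 ± 0.62), and Mxi1, a MYC antagonist, gave 0.18 ± 0.09.

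The interaction term tests whether the genotype difference itself differed between the cohorts. It was called for 4 members, all positive (more Tg over WT in the established than in the early cohort), against a background of 3.43% of 16082 genes positive and 4.00% negative. The differences were 1.94 ± 0.49 for Adm (edgeR adjusted p = 0.019), 1.25 ± 0.32 for Ndrg1 (0.020), 0.70 ± 0.16 for Pfkl (0.012) and 0.57 ± 0.16 for Pfkp (0.030), the last of which rose to 0.056 without WT early replicate 2 and 0.052 without WT established replicate 1. Bnip3 (1.09 ± 0.37) and Kdm3a (0.47 ± 0.16) missed the threshold, both at an adjusted p of 0.07 in edgeR. The early levels overlapped for all 6 genes, for example Adm at 1.50 to 5.24 CPM in WT and 0.527 to 3.84 CPM in Tg, and Ndrg1 at 60.6 to 170 and 65.3 to 166 CPM.

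Within a genotype, the cohorts differ in age and sex as well as in stage. In WT mice, 3 members were called lower in the established cohort and 0 higher, against a background of 3.48% lower and 2.33% higher: Pfkl (-0.46 ± 0.11, edgeR adjusted p = 0.020), Bnip3l (-0.47, 0.023) and Car9 (-2.28, 0.031). Pfkl fell from a median of 26.5 CPM in early to 19.3 CPM in established WT mice, so its higher level in established Tg mice (median 33.2 CPM) stood beside 28.5 CPM in early Tg mice. Car9 was split among early WT mice, with 3 mice at 0.866 to 1.14 CPM and 4 at 7.16 to 26.6 CPM. In Tg mice 7 members were called higher and 8 lower, 21.9% and 25%, close to the background of 25.8% higher and 22.0% lower among all genes. Adm (2.28), Ndrg1 (1.62), Egln3 (0.88), Slc2a1 (0.81), Pfkfb4 (0.55), Kdm3a (0.54) and Pfkp (0.48) were the higher ones on the log2 scale. The lower ones were Car9 (-2.28), Ldha (-1.16), Pkm (-0.96), Tpi1 (-0.94), Pgk1 (-0.88), Pdk1 (-0.76), Higd1a (-0.74) and Egln1 (-0.48). These comparisons share groups of mice with the genotype comparisons and are not independent of them. The calls of Bnip3l and Car9 in WT mice rested on few mice: adjusted p was 0.060 for Bnip3l without WT early replicate 6 and 0.10 for Car9 without WT early replicate 5. In Tg mice the call of Tpi1 stayed in 5 of 15 fits with 1 mouse left out. Muscle genes had a median of 16646 CPM in Tg early and 1421 CPM in Tg established mice. With muscle level as a covariate Tpi1 and Pgk1 were not called (edgeR adjusted p = 0.43 and 0.058), while the other 6 lower members stayed called.

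Several glycolytic transcripts followed the muscle content of the samples. After each value was taken as a deviation from its genotype mean, log2 CPM of 11 of the 32 members correlated positively with the log2 summed level of the 22 muscle genes in the 13 established mice, and 0 negatively, at an adjusted permutation p of at most 0.05 over the 32 members. In the 15 early mice 8 did so positively and 1, Kdm3a, negatively. Aldoa gave Pearson's r = 0.95 and Spearman's rho = 0.97 in early mice (permutation p = 1e-05 for both, the smallest that 100000 resamples can give, adjusted 0.00032) and r = 0.91 and rho = 0.93 in established mice (permutation p = 1e-04 and 4e-05, adjusted 0.0016 and 0.00064). Leaving out the 2 mice farthest from the median muscle level left r for Aldoa at 0.95 and 0.90.

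Gapdh gave r = 0.89 and rho = 0.93 in early mice (permutation p = 0.00012 and 2e-05, adjusted 0.0013 and 0.00032), with r = 0.87 without the 2 farthest mice. In established mice it gave r = 0.87 and rho = 0.85 (permutation p = 0.00062 and 0.0013, adjusted 0.0066 and 0.010), with r = 0.84 without them. Hk2 gave r = 0.93 and 0.94 and rho = 0.88 and 0.95 in early and established mice (permutation p = 6e-05, 5e-05, 0.00055 and 3e-05 in that order, adjusted 0.00096, 0.0016, 0.0029 and 0.00064), with r = 0.93 and 0.95 without the 2 farthest mice. Among mice below 5000 CPM of muscle genes, a limit chosen after seeing the data, Gapdh kept only r = 0.22 in 6 early and 0.61 in 8 established mice, whereas Hk2 had 0.80 and 0.99. Below that limit the other positively correlated members ran from -0.32 (Slc16a3) to 0.73 (Aldoa) in early mice. In established mice they ran from -0.03 (Tpi1) to 0.83 (Pfkfb4). Above that limit, 9 early mice gave 0.89 for Gapdh and 0.46 for Hk2, and 5 established mice were too few for a value.

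Of the 6 called members, only Bnip3 passed in established mice, for r but not for rho (r = 0.67, rho = 0.65, permutation p = 0.0070 and 0.018, adjusted 0.021 and 0.058, and r = 0.68 without the 2 farthest mice). Adm, Ndrg1, Pfkl, Pfkp and Kdm3a gave r of 0.37, -0.35, -0.25, -0.21 and 0.06 there, with rho of 0.29, -0.32, -0.41, -0.29 and -0.02, none passing (adjusted permutation p of 0.29 or more for r and 0.21 or more for rho). In early mice Kdm3a gave r = -0.68 and rho = -0.81 (permutation p = 0.014 and 0.0012, adjusted 0.049 and 0.0047), with r = -0.63 without the 2 farthest mice.

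**Figure D3:**
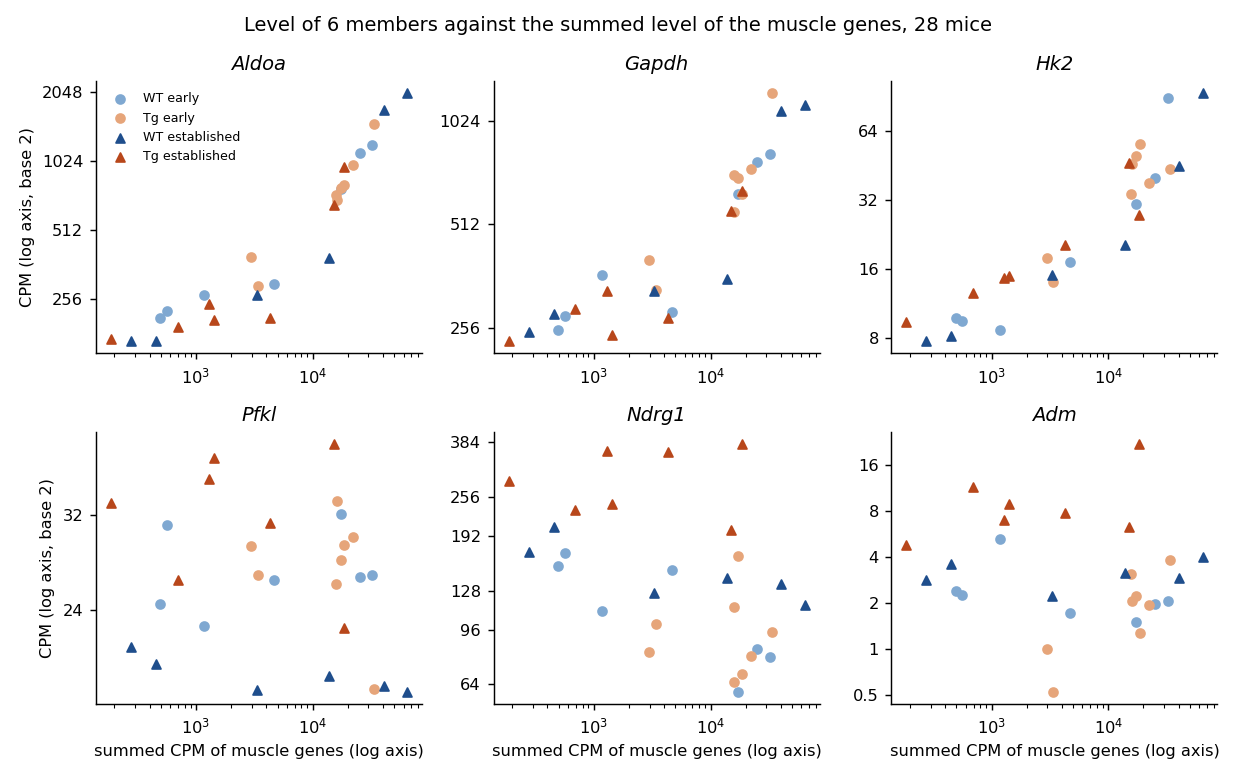
CPM of 6 members against the summed CPM of 22 muscle genes in each of the 28 mice, both on logarithmic axes, with circles for early and triangles for established mice. Aldoa, Gapdh and Hk2 rise with the muscle genes in both cohorts (Aldoa from 168 to 2017 CPM). The established Tg triangles of Pfkl and Adm lie above all established WT triangles, and those of Ndrg1 overlap with them at a single pair.

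With the muscle level as a covariate in the established fit, 9 members were called higher and 0 lower, against a background of 4.59% of all genes higher and 5.71% lower in the same fit. The 6 genes above remained called, with log2 fold changes of 0.45 to 1.68, and Slc2a1 (0.70 ± 0.20, edgeR adjusted p = 0.042), Pfkfb3 (0.72 ± 0.20, 0.037) and Ankrd37 (0.87 ± 0.24, 0.038) joined them. Aldoa moved from -1.04 to -0.16, Gapdh from -0.63 to -0.19, Tpi1 from -0.65 to -0.09 and Hk2 from -0.60 to 0.21, none of them called. In the 3 WT and 5 Tg established mice below 5000 CPM of muscle genes, Pfkl alone was called (0.71 ± 0.12, edgeR adjusted p = 0.045), against a background of 0.240% higher and 0.456% lower. There Adm gave 1.47 ± 0.28 (0.055), Bnip3 1.02 ± 0.19 (0.054), Ndrg1 0.83 ± 0.20 (0.098), Pfkp 0.34 ± 0.10 (0.14) and Kdm3a 0.34 ± 0.12 (0.20), with edgeR's adjusted p in parentheses.

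**Figure D4:**
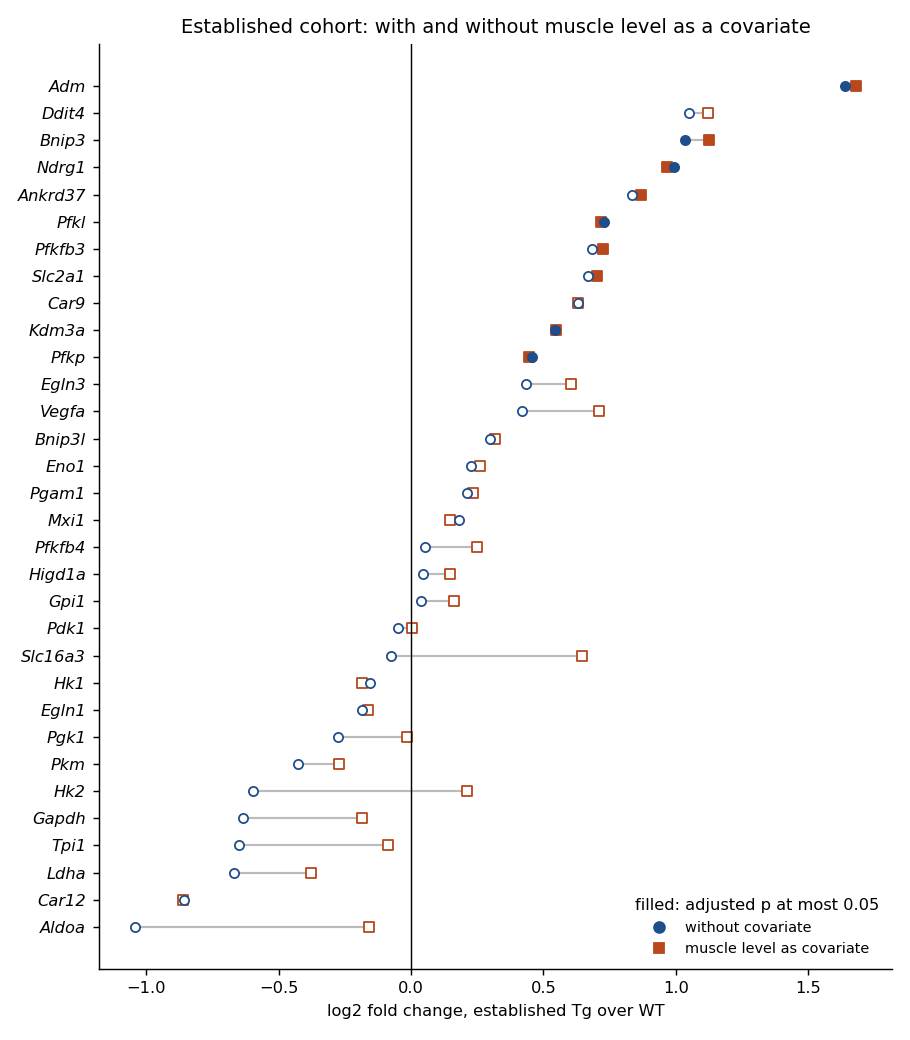
Log2 fold change of established Tg over WT for the 32 genes without (blue circles) and with (red squares) the muscle level of each mouse as a covariate, with filled symbols for an adjusted p of at most 0.05. Aldoa, Tpi1, Gapdh and Hk2 shift towards or past 0, while Adm, Bnip3, Ndrg1, Pfkl, Pfkp and Kdm3a stay in place and stay called.

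The summed level of the tenocyte genes was lower in Tg established mice without overlap (6442 to 62028 against 72773 to 138550 CPM). Its difference between genotypes was opposite in direction to that of all 6 called genes, and its part in these results was not tested. The part of the macrophage genes, with a median of 1009 CPM in WT and 1224 CPM in Tg established mice, was not tested either. Among the 2 established males, of which each genotype had 1, the WT male had the highest muscle level of all mice. In the 11 established females alone Pfkl (0.78), Pfkp (0.47), Adm (1.39) and Ndrg1 (0.85) were called (background 1.27% higher and 2.26% lower), whereas Bnip3 (0.77) and Kdm3a (0.37) both had an edgeR adjusted p of 0.060.

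Gapdh and Anxa5, an annexin, served as reference genes in the study for qPCR of fresh frozen mouse tail tendon, and Eif4a2, a translation initiation factor, was used in rat cells. Over the 28 mice Gapdh varied 5.24-fold between the lowest and the highest mouse (coefficient of variation 55.4%), Anxa5 3.14-fold (22.7%) and Eif4a2 2.05-fold (17.4%). Neither Anxa5 (-0.25 ± 0.19) nor Eif4a2 (0.11 ± 0.13) was called in the established cohort. The ratio of Gapdh to Anxa5 ran from 1.10 to 5.00 in early and from 1.02 to 5.42 in established mice. On the log2 scale it was 0.73 ± 0.58 (SD, n = 7) in WT and 1.36 ± 0.47 (SD, n = 8) in Tg early mice, a difference of 0.63 (two-sided exact permutation test, p = 0.039, chosen after the values were seen). In established mice it was 1.06 ± 0.89 (SD, n = 6) in WT and 0.90 ± 0.70 (SD, n = 7) in Tg (exact permutation p = 0.72). The part of muscle content, with which Gapdh correlated in both cohorts, was not tested for this ratio, and no qPCR was analysed here.

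**Figure D5:**
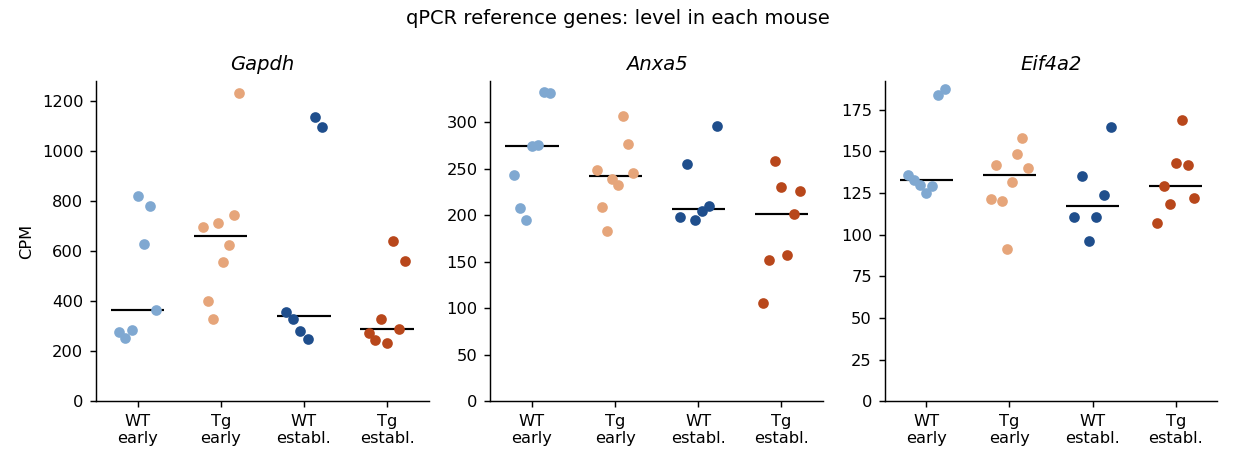
CPM of Gapdh, Anxa5 and Eif4a2 in each of the 28 mice (points) with the group median (line), on axes that start at 0. Gapdh spans 235 to 1229 CPM, Anxa5 106 to 333 CPM and Eif4a2 91.2 to 187 CPM.

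Genes of the same pathways outside the set were read from lists of other glycolysis genes, of the hypoxia-inducible factor machinery and of further targets of these factors. In the early cohort 0 of 29, 0 of 13 and 0 of 43 tested genes were called in edgeR, with 0 in each list at an unadjusted p under 0.05, and DESeq2 and limma voom called 0 as well (1, 0 and 2 and 3, 2 and 9 at an unadjusted p under 0.05). In the established cohort 1 of 30 other glycolysis genes was higher and 3 lower (3.33% and 10%, beside the background of 3.14% and 3.37%), with a median log2 fold change of -0.28. The transporter Slc2a3, common in neurons and leukocytes, rose (3.45 to 5.33 CPM in WT, 6.28 to 8.19 CPM in Tg, 0.60 ± 0.11, edgeR adjusted p = 0.014). The monocarboxylate transporter Slc16a1 fell, from 60.02 to 100.3 CPM in WT to 32.4 to 52.9 CPM in Tg without overlap (-0.79 ± 0.13, edgeR adjusted p = 0.010). Bpgm, which makes 2,3-bisphosphoglycerate, had -0.58 ± 0.14, and Hkdc1, a hexokinase-like gene at 0.865 CPM or less in established mice, -1.62 ± 0.34.

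Of 13 genes of the factor machinery, 0 were higher and 3 lower in established Tg mice, against the background of 3.37% lower. Epas1, which encodes the hypoxia-inducible factor 2 alpha subunit, fell from 87.0, 103 and 119 CPM in WT to 38.97, 60.2 and 75.3 CPM in Tg without overlap (-0.80 ± 0.13, 1.75-fold lower, edgeR adjusted p = 0.0093). The transcriptional repressor Bhlhe41 was at 123 to 203 CPM in WT and 37.9 to 92.2 CPM in Tg (-1.06 ± 0.18), and Cited4, a partner of CBP and p300, was low in both (1.00 to 2.27 and 0.321 to 0.887 CPM, -1.26 ± 0.27). Hif1a had 97.7, 106 and 147 CPM in WT and 65.5, 92.7 and 125 CPM in Tg mice and was not called (-0.26 ± 0.16, edgeR adjusted p = 0.30). Hif3a, a family member at 0.415 to 2.62 CPM in WT and 1.41 to 14.4 CPM in Tg, missed the threshold (1.71 ± 0.53, edgeR adjusted p = 0.067). The Hif1a and Epas1 proteins are controlled mainly by protein stability, which was not measured.

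Of 43 further targets, 4 were higher and 2 lower in established Tg mice, 9.30% and 4.65%, beside the background of 3.14% and 3.37%, with a median of 0.06. The higher ones were the endothelin gene Edn1 (1.88 ± 0.52), the chemokine receptor Cxcr4 (1.47 ± 0.41), the cyclin Ccng2 (0.94 ± 0.23) and the oxidoreductase Ero1a (0.31 ± 0.08). The lower ones, the prolyl hydroxylase subunit P4ha1 (-0.91 ± 0.25) and the lysyl oxidase homologue Loxl2 (-1.46 ± 0.28), both act in collagen maturation. P4ha1 had 270 to 560 CPM in WT and 104 to 337 CPM in Tg, and Loxl2 had 522 to 938 and 79.0 to 326 CPM. Calls for Edn1, Cxcr4 and P4ha1 were each at an edgeR adjusted p of 0.047, and stayed in 3, 3 and 2 of 13 fits with 1 mouse left out. Those for Ero1a and Ccng2 stayed in 5 and 6 of 13.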

How the data were processed

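Tail tendon fascicles of 28 mice were profiled by bulk RNA-seq of ribosomal RNA-depleted libraries. Reads were aligned by the authors with STAR to GRCm39 and counted per gene with featureCounts (GENCODE release 26), and the deposited values are raw counts per gene and mouse, with no normalisation. The sources differ on the RNA extraction kit. Of 25719 identifiers, 25505 were named from GENCODE release 39. The 32 members and all lists were chosen with earlier results of these data known, and all 32 members may be named.

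Counts were tested with edgeR 4.0.16 in R 4.3.3 (TMM scaling, filterByExpr with a minimum count of 10 and total of 15, quasi-likelihood test) and adjusted by Benjamini-Hochberg over all genes tested, with a threshold of 0.05. Genotypes were compared within each cohort. The interaction and the cohort comparisons used all 28 libraries, and CPM values share 1 TMM scaling over them. Alternatives were DESeq2 1.42.0, limma 3.58.1 voom with quality weights, other scaling and filters, a replicate block, muscle level or sex as covariates, and leaving out each mouse. Limiting fits to mice under 5000 CPM of muscle genes was chosen after seeing the data. Marker lists were compared by exact permutation tests over mice (6435 early, 1716 established), and correlations by 100000 permutations within genotype (scipy 1.17.1). Scripts were tested on simulated data. Each mouse is 1 replicate. Depth was 9645598 to 66894396 counts.

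Replicate numbers come from the labels, which do not say that they pair mice. In the early cohort all 7 same-numbered pairs deviated together (correlation 0.13 to 0.36), so the replicate block is given beside the unblocked early values. The reported fits and the permutation tests are unpaired. In the established cohort the correlation was 0.30 to 0.69 in 4 of 6 pairs, 0.06 for replicate 2 and -0.22 for replicate 6. Whether these mice share more than a number is not known. Tg early replicate 8 and Tg established replicate 7 have no WT mouse of their number in their cohort. In the blocked fits of a single cohort they therefore do not enter the genotype difference.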

Additional observations from a re-analysis of the deposited data

Results flagged for a closer look

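Within groups, 8 values stood apart from the other mice by Dixon's criterion among 128 groups of values screened, and chance alone marks about 1 in 20 groups. Single low mice were Tg early replicate 8 for Pfkl (18.9 CPM), Tg early replicate 1 for Car9 (1.02 CPM) and WT established replicate 1 for Ankrd37 (1.14 CPM). Single high mice were Tg established replicate 7 for Pkm (599.6 CPM) and Vegfa (70.03 CPM), WT established replicate 6 for Bnip3 (63.2 CPM), Tg established replicate 5 for Bnip3l (128.7 CPM) and WT early replicate 7 for Adm (5.24 CPM).

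The genotype difference itself differed between the cohorts by the interaction term (edgeR, adjusted p of at most 0.05) for 4 members, on the log2 scale by 0.70 for Pfkl, 0.57 for Pfkp, 1.94 for Adm and 1.25 for Ndrg1. Outside the set it was positive for Slc2a3 (0.69), Ccng2 (0.95) and Edn1 (2.22). It was negative for Hkdc1 (-2.11), Bpgm (-0.67), Slc16a1 (-0.99), Epas1 (-0.79), Bhlhe41 (-0.96), Cited4 (-1.65), P4ha1 (-1.15) and Loxl2 (-1.95). Cohort, age and sex cannot be told apart here.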

How the results depend on the processing

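No member called with or without an alternative changed sign under it. Members not called did, for example 3 of 32 in the established and 10 of 32 in the early cohort with muscle level as covariate, and 5 and 4 in mice under 5000 CPM of muscle genes. Of 1178 single-gene values under alternatives, 1037 stayed on their side of the threshold, 134 lost and 7 gained a call. The early count stayed at 0 under all alternatives, with 0 also in every fit with 1 mouse left out. The 6 established calls became 2 with a log2 fold change of at least 1 required and 1 in mice under 5000 CPM of muscle genes (fewer mice, chosen after seeing the data), and ranged from 3 to 8 with 1 mouse left out, with 3 without WT established replicate 1 or 5. The interaction count of 4 became 2 with a log2 fold change of at least 1 and ranged from 3 to 7, with 7 without Tg established replicate 7. The WT cohort count of 3 became 1 with a log2 fold change of at least 1, 6 with DESeq2, 5 with limma voom and 6 with muscle level as covariate, and ranged from 1 (without WT established replicate 4 or 5) to 6 (without WT early replicate 3). The Tg cohort count of 15 became 4 with a log2 fold change of at least 1 and ranged from 14 to 19. With 1 mouse left out, the member median ranged from 0.08 to 0.18 early and from 0.004 (without Tg established replicate 7) to 0.24 established. Beyond the alternatives that change the samples or the threshold themselves, the cause was not tested.

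With the replicate block, 6 members were called in the established cohort, in which Bnip3 (0.98, adjusted p = 0.058) and Kdm3a (0.55, 0.084) gave way to Ddit4 (1.73, 0.044, higher) and Car12 (-1.54, 0.047, lower), and the member median was 0.02. In that fit Tg established replicate 7, which has no WT mouse of its number, did not enter the genotype difference. The block called 0 members early and 3 in the interaction, where Pfkp had an adjusted p of 0.057. In the interaction fit each block also joined early and established mice of the same number, which the labels do not pair.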
